A study of Mus musculus with 8 samples.

Results

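The genes described here encode 9 cell surface proteins that have been used to sort or enrich spermatogonial stem cells (SSCs), namely *Thy1*, *Itga6*, *Itgb1*, *Epcam*, *Cdh1*, *Cd9*, *Mcam*, *Adgra3* and *Tspan8*. They were taken by gene symbol from a table of read counts that lists 55421 genes. All 9 were in the table, and all 9 were among the 20477 genes with enough reads to be tested, *Tspan8* only through the groups without RA.

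SSCs sit on the basement membrane of the seminiferous tubule and either renew themselves or enter differentiation under retinoic acid (RA). No single surface protein marks them, so they are sorted by combinations of adhesion molecules, many of which stay on the cells as they differentiate and also occur on somatic cells. Integrins bind laminin and other matrix proteins, tetraspanins organise integrins and other receptors in the membrane, and E-cadherin, EPCAM and MCAM join cells to each other.

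SSC cultures were derived from testes of 6-day-old C57BL/6XDBA/2 pups, F1 hybrids of both strains, and were kept on irradiated mouse embryonic fibroblasts, whose RNA can enter a library. All 4 groups were treated for 2 days. Vehicle cultures (Veh) stayed in complete SSC medium, which contains GDNF and bFGF. RA cultures received 100 nM RA in that medium. Nutrient-restricted cultures (NR) were kept in 10% complete medium and 90% Earle's balanced salt solution (EBSS), and NRRA cultures received both treatments. Each group had 2 libraries, which the study describes as independent biological replicates. The cultures are mixed populations measured in bulk, so fewer cells of a type and less RNA per cell cannot be told apart.

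Total counts ranged from 19261333 to 30023585 per library. Values are given as CPM, read counts scaled to library totals that were adjusted by edgeR's TMM factors. The 6 germ cell markers checked against the label were present in every group, with a summed level of 890.3 to 1149 CPM over all libraries. The sum of 12 markers of undifferentiated spermatogonia was 1111 to 1190.0 CPM in Veh, 581 to 595 CPM in RA, 1031 to 1060.0 CPM in NR and 429 to 439 CPM in NRRA. Not all of them fell, since *Sall4* averaged 129 CPM in Veh, 154 CPM in RA, 128 CPM in NR and 200 CPM in NRRA. Markers of fibroblasts, the feeder cell type, were higher in sum in both restricted groups. In NRRA the higher sum came from 3 collagen genes, because the other markers included genes that rose and genes that fell. The sum of 12 fibroblast markers was 11727 to 11974 CPM in Veh and 9455 to 10175 CPM in RA, against 22254 to 23373 CPM in NR and 19612 to 20187 CPM in NRRA, and none was at 0 in any group. Without *Col1a1*, *Col1a2* and *Col3a1*, the other 9 summed to 4437 to 4707 CPM in Veh, 3570 to 3769 CPM in RA, 5733 to 5748 CPM in NR and 4356 to 4362 CPM in NRRA. Of the other somatic lists, 4 peritubular myoid markers summed to 64.7 to 91.5 CPM without restriction and 517 to 894 CPM with it, almost all of it from the smooth muscle actin *Acta2*. Sertoli, Leydig, macrophage and endothelial markers summed to at most 45.4, 15.0, 131 and 15.1 CPM. *Sox9* made up most of the Sertoli sum, with means of 31.9 CPM in Veh, 14.7 CPM in RA, 36.1 CPM in NR and 7.14 CPM in NRRA. The Sertoli gene *Rhox8* was at 0 in Veh, NR and NRRA and too low to be tested.

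Levels of different genes were compared only as CPM per kilobase of exon. On this scale *Itgb1*, the integrin β1 chain, stood highest in every group, with 292 ± 17.4 (SD, n = 2) in Veh and 270.2 ± 4.13 with RA, against 207 ± 3.59 in the NR cultures and 201 ± 0.937 in the NRRA cultures. In Veh it was followed by *Thy1* at 94.2 ± 2.91 and *Mcam* at 92.3 ± 5.68, whose libraries overlapped, so these neighbours were not ordered by the data. *Cd9* came next at 57.9 ± 0.450 and *Epcam* at 40.6 ± 0.324. *Adgra3* at 12.6 ± 0.0409 and *Itga6* at 11.04 ± 0.743 formed a lower tier, and *Cdh1* at 1.49 ± 0.0485 and *Tspan8* at 0.762 ± 0.0485 were the lowest. No other neighbours in the order overlapped in any group. *Mcam* changed place most, from the level of *Thy1* in Veh and NR (78.8 ± 0.0857, against 76.2 ± 0.160 for *Thy1*) to below *Epcam* in RA (36.1 ± 0.222, against 39.0 ± 0.515). *Cd9* fell below *Epcam* in NRRA alone among the groups, at 18.1 ± 0.993 against 29.97 ± 0.709 CPM per kilobase.

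**Figure D1:**
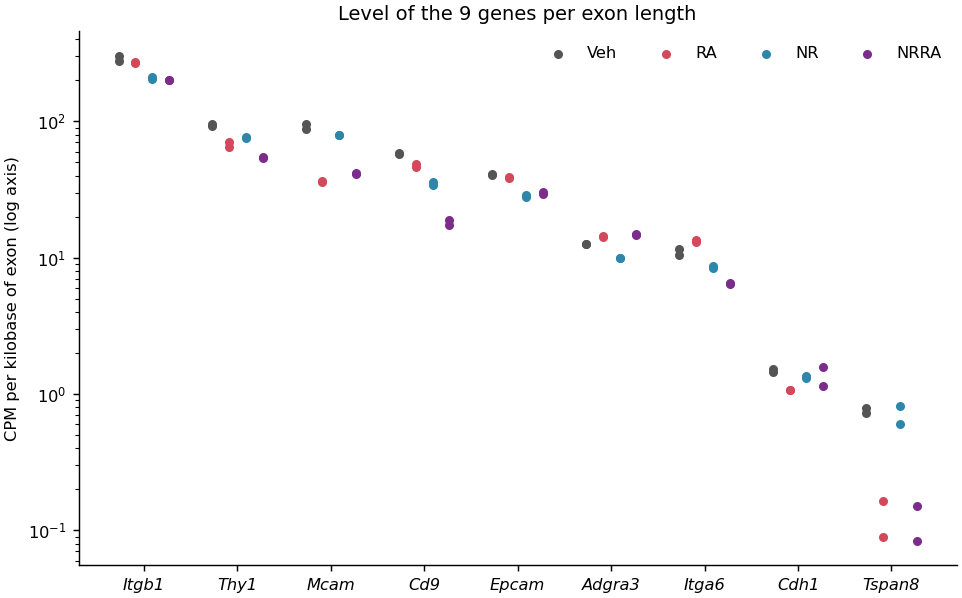
Level of each of the 9 genes as CPM per kilobase of exon (log axis), 1 point per library, with Veh, RA, NR and NRRA side by side for each gene. *Itgb1* is highest in all 4 groups, and *Tspan8* is lowest, at 0.762 in Veh and 0.117 in NRRA on average.

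Most of the surface markers were lower in treated cultures. Changes are log2 fold changes with their standard error (SE), and a gene was called at an adjusted p under 0.05 in edgeR's quasi-likelihood test with Benjamini-Hochberg adjustment over all tested genes. In RA vs Veh, 2 of the 9 genes were called higher and 6 lower, where 43.2% of all tested genes were called, 19.8% higher and 23.4% lower. In NR vs Veh, 0 were called higher and 7 lower by edgeR, where 43.9% of all tested genes were called (21.7% higher and 22.2% lower). All 9 estimates of that comparison were negative, so 0 were higher at an unadjusted p under 0.05, and DESeq2 also called 0 higher. In NRRA vs Veh, 1 was called higher and 7 lower, where 58.9% of all tested genes were called (30.1% higher and 28.7% lower). Against Veh the 9 genes had a median log2 change of -0.30 with RA, -0.34 with restriction and -0.76 with both, beside medians of -0.019, 0.0057 and 0.030 over all tested genes. Between treated groups, NRRA vs RA called 1 higher and 5 lower (40.3% of all tested genes, 20.9% higher and 19.4% lower), with a median of -0.31 (0.016 over all tested genes). NRRA vs NR also called 1 higher and 5 lower (43.4% of all tested genes, 21.3% higher and 22.1% lower), with a median of -0.40 (0.0056 over all tested genes).

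Changes of at least 2-fold were fewer, and all were decreases. *Mcam* and *Tspan8* passed this threshold in RA vs Veh (2.75% of tested genes were 2-fold lower), none of the 9 did in NR vs Veh (2.96%), where the decrease of *Cd9* reached 1.65-fold, and *Cd9*, *Mcam* and *Tspan8* did in NRRA vs Veh (6.02%). The libraries of both groups did not overlap for 9 of 9 genes in RA vs Veh, 8 in NR vs Veh and 8 in NRRA vs Veh. Among all tested genes the groups were without overlap in 68.1%, 69% and 77.3%, so separation alone was common in these data. *Tspan8* passed the filter on low counts only through Veh and NR, where it is high. Its decreases and its separation with RA were thus partly fixed by the filter, and the counts above include both.

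**Figure D2:**
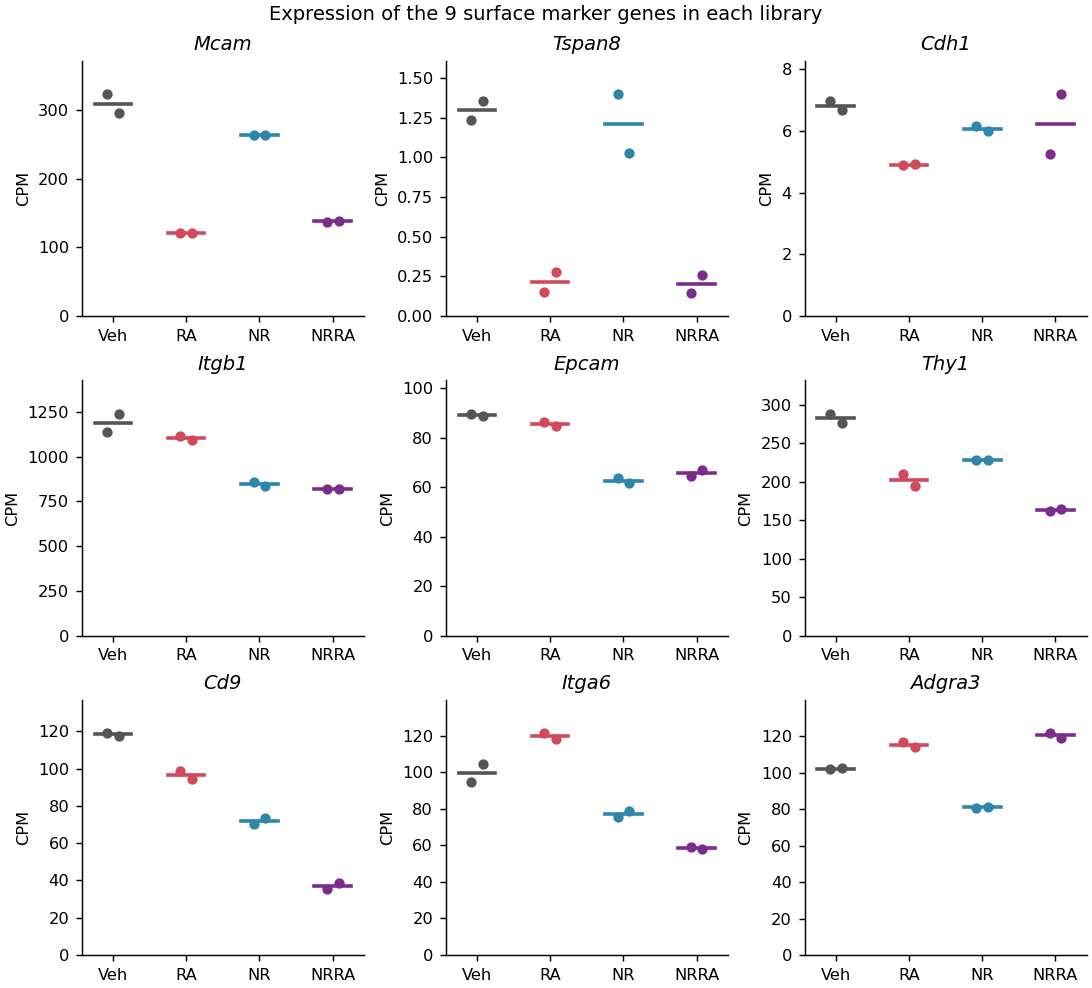
CPM of each gene (vertical axes from 0, a scale of its own per panel) in the 4 groups; points are the 2 libraries of a group and the line is their mean. *Mcam* and *Tspan8* are low wherever RA was given, *Itgb1* and *Epcam* are low wherever nutrients were restricted, and *Cd9* is lowest in NRRA at 35.6 and 38.5 CPM.

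Promoters are shown for 4 genes chosen after their values were seen, a pair that was lower with RA in both media and a pair that was lower under restriction with or without RA. They are not the full sets, since *Cd9* and *Thy1* also met both descriptions, *Itga6* was also lower under restriction with and without RA, and *Adgra3* was higher with RA in both media. These are the RefSeq promoters on GRCm38.p6, 250 bases before to 50 bases after the annotated start and on the plus strand, and the table used held 6 of the 9 genes. Capitals mark every match to 11 searched motifs on either strand. *Mcam* (chr9:44134408-44134707) and *Tspan8* (chr10:115817034-115817333) fell with RA.
Mcam: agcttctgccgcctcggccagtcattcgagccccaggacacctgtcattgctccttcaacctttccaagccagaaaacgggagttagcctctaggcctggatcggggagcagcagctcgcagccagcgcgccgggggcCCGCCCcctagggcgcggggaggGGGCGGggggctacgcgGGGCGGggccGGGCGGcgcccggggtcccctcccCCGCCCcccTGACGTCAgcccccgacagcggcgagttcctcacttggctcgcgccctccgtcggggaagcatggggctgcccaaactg
Tspan8: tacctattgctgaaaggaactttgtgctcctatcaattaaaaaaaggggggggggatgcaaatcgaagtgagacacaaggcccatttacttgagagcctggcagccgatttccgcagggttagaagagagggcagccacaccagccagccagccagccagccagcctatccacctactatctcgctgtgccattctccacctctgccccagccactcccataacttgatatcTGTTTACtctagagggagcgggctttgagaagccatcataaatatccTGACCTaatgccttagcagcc
*Itgb1* (chr8:128685404-128685703) and *Epcam* (chr17:87635729-87636028) fell under nutrient restriction.
Itgb1: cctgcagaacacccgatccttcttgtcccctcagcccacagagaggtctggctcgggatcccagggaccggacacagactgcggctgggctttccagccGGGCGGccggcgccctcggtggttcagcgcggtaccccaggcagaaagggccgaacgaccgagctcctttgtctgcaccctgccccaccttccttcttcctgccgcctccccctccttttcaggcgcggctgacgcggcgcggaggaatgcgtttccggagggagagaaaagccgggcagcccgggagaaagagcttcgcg
Epcam: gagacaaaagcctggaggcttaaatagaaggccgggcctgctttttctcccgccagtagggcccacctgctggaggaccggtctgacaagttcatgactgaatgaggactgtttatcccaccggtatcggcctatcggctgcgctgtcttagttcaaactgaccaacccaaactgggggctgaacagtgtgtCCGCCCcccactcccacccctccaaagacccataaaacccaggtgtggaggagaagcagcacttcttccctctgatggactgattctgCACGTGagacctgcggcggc
The motifs were the nuclear receptor site AGGTCA, its direct repeats with a spacing of 2 or 5 bases, to which RA receptors are known to bind, the E box CACGTG, the GC box GGGCGG, the CCAAT box (CCAAT), the TATA box TATAAA, the amino acid response core TGATGCAA, the forkhead site GTAAACA, the ETS site CCGGAAG and the cAMP response element TGACGTCA. The single site lies within both direct repeats, and no other searched motif contains another. No direct repeat was found in the windows of the 6 genes, nor in more than 0.00913% of the 32851 promoters in the table for either spacing.

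The *Mcam* window had a GC content of 72.7% and 5 GC boxes, a motif in 35.7% of all promoters, and 1 cAMP response element, found in 1.79%. The *Tspan8* window, at 51.7% GC, had no GC box. It held 1 nuclear receptor site on the opposite strand, 29 bases after the start (16.3% of all promoters hold one), and 1 forkhead site on the opposite strand (3.65%). The RefSeq starts used for *Mcam* and *Tspan8* lie inside the genes as GENCODE M21 gives them. The *Itgb1* window held 1 GC box at 67.3% GC, and that of *Epcam* held 1 GC box and 1 E box (7.15%) at 57.0% GC. The remaining windows had only GC boxes, 2 for *Cd9* and 1 for *Adgra3*. A match describes letters in a window, and the absence of one says only that these letters are not in it.

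*Itga6* (GRCm38, chr2:71745616-71858416, plus strand) encodes integrin α6, which pairs with β1 or β4 into a laminin receptor and is among the most used sorting markers of SSCs. Its level was 94.9 and 104 CPM in Veh, 121 and 118 CPM in RA, 75.5 and 78.9 CPM in NR and 59.2 and 58.1 CPM in NRRA. No 2 groups overlapped, and RA stood above Veh while NRRA stood lowest. *Itga6* rose in RA vs Veh (0.27 ± 0.053 SE, adjusted p = 0.000187) and fell in NR vs Veh (-0.37 ± 0.054, adjusted p = 4e-06). With both treatments it fell further, by 0.76 ± 0.055 against Veh (adjusted p = 4.27e-12) and 2.04-fold against RA (-1.03 ± 0.053, adjusted p = 7.8e-15). RA thus went with a higher level in complete medium and a lower one under nutrient restriction (NRRA vs NR -0.40 ± 0.055, adjusted p = 1.33e-06).

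*Itgb1* (chr8:128685654-128733200, plus strand), the β1 chain shared by many integrins, followed the medium. It was measured at 1140.1 and 1240.4 CPM in Veh, 1115 and 1091 CPM in RA, 856 and 836 CPM in NR, and 822 and 817 CPM in NRRA. Both restricted groups lay below both groups in complete medium. The decrease was 1.41-fold in NR vs Veh (-0.49 ± 0.039, adjusted p = 6.32e-11) and 1.35-fold in NRRA vs RA (-0.43 ± 0.039, adjusted p = 7.98e-10). Adding RA under restriction gave a difference of -0.046 ± 0.039 that was not called (NRRA vs NR, adjusted p = 0.37). In complete medium the difference between RA and Veh was small (-0.11 ± 0.039, adjusted p = 0.0236) and rested on single libraries. It was not called without Veh replicate 2 (-0.032, adjusted p = 0.456), RA replicate 2 (-0.095, adjusted p = 0.131), NR replicate 1 (-0.091, adjusted p = 0.082) or NR replicate 2 (-0.088, adjusted p = 0.0899), and was -0.20 once trends with GC content and length were removed.

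*Cd9* (chr6:125460266-125494791, minus strand) encodes a tetraspanin that associates with integrins and has been used to enrich SSCs. Its level was 119 and 118 CPM in Veh, 98.7 and 94.4 CPM in RA, 70.2 and 73.3 CPM in NR and 35.6 and 38.5 CPM in NRRA. The 4 groups did not overlap, and NRRA was the lowest. *Cd9* was lower than in Veh with RA (-0.30 ± 0.052, adjusted p = 4.09e-05), with restriction (-0.72 ± 0.053, adjusted p = 1.48e-11) and, 3.19-fold, with both (-1.67 ± 0.056, adjusted p = 3.8e-19). NRRA was lower than RA by 2.599-fold (-1.38 ± 0.056, adjusted p = 3.64e-17) and lower than NR by 1.94-fold (-0.95 ± 0.057, adjusted p = 2.46e-13). At the end where its transcripts start, *Cd9* shares 10.7% of its exon bases with *Gm26728* on the opposite strand, which had 3.43 to 11.8 CPM. The paper describes stranded sequencing. Whether reads were also counted by strand is not given in the sources used here. Reads in the shared bases may thus be missing from a count or belong to the other gene.

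*Tspan8* (chr10:115816832-115849893, plus strand), a tetraspanin used to divide undifferentiated spermatogonia into fractions richer and poorer in SSCs, was close to the lower limit of these libraries. Veh libraries held 25 and 26 reads (1.24 and 1.35 CPM), RA libraries 3 and 8 reads (0.153 and 0.277 CPM), NR libraries 29 and 27 reads (1.40 and 1.03 CPM) and NRRA libraries 4 and 8 reads (0.143 and 0.257 CPM). Both groups with RA lay below both groups without it, whereas Veh and NR overlapped, as did RA and NRRA. *Tspan8* fell with RA in complete medium (RA vs Veh -2.49 ± 0.45, adjusted p = 5.47e-05) and under restriction (NRRA vs NR -2.53 ± 0.43, adjusted p = 2.37e-05), and in NRRA vs Veh (-2.65 ± 0.43, adjusted p = 8.46e-06). The gene passed the filter on low counts only through Veh and NR, the groups where it is high, so a test of RA was made on a gene that had to differ. As a ratio of summed reads, RA over Veh was 0.175 (95% exact conditional binomial interval 0.0824 to 0.341) and NRRA over NR was 0.171 (0.0833 to 0.322). Nutrient restriction alone gave a ratio of 0.918 (0.617 to 1.37, NR over Veh), which was not called (adjusted p = 0.803), and NRRA over RA was 0.894 (0.361 to 2.24). These intervals cover counting error only, and at this depth a smaller difference between media could not be detected.

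*Epcam* (chr17:87635979-87651129, plus strand) encodes an epithelial adhesion molecule found on spermatogonia from stem cells to differentiating stages. Its libraries held 89.7 and 88.7 CPM in Veh, 86.4 and 84.8 CPM in RA, 63.8 and 61.5 CPM in NR and 64.7 and 66.9 CPM in NRRA. The restricted groups were below the groups in complete medium, with no overlap. The decrease was 1.42-fold in NR vs Veh (-0.51 ± 0.053, adjusted p = 9.48e-09) and 1.30-fold in NRRA vs RA (-0.38 ± 0.051, adjusted p = 8.27e-07). *Epcam* was also lower in NRRA vs Veh (-0.44 ± 0.051, adjusted p = 4.37e-08). RA gave no called difference in either medium (RA vs Veh -0.061 ± 0.051, adjusted p = 0.36; NRRA vs NR 0.071 ± 0.052, adjusted p = 0.29).

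*Cdh1* (chr8:106603351-106670246, plus strand) encodes E-cadherin, the adhesion protein of undifferentiated spermatogonia, and was expressed at a low level. It stood at 6.98 and 6.67 CPM in Veh, 4.89 and 4.92 CPM in RA, 6.17 and 6.00 CPM in NR and 5.25 and 7.19 CPM in NRRA. RA was the lowest group, and the NRRA libraries were far enough apart to span both Veh and NR. The difference in RA vs Veh was called (-0.48 ± 0.15, adjusted p = 0.0137). It was no longer called without Veh replicate 1 (-0.42, adjusted p = 0.0814), without RA replicate 2 (-0.48, adjusted p = 0.0727) or with DESeq2 (-0.49, adjusted p = 0.0761). *Cdh1* was not called in NR (-0.17 ± 0.15, adjusted p = 0.384) or NRRA (-0.13 ± 0.14, adjusted p = 0.464) against Veh. NRRA vs RA gave 0.35 ± 0.14 (adjusted p = 0.0572), which was 0.55 (adjusted p = 0.00615) without NRRA replicate 1 and 0.097 (adjusted p = 0.716) without NRRA replicate 2.

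*Mcam* (chr9:44134469-44142727, plus strand) encodes the immunoglobulin-type adhesion molecule CD146, reported on undifferentiated spermatogonia and also on vascular and other somatic cells. It was read at 323 and 296 CPM in Veh, 122 and 120.5 CPM in RA, 264 and 264 CPM in NR and 138 and 139 CPM in NRRA. Groups with and without RA lay far apart, and the difference between media was small beside it. *Mcam* fell 2.56-fold in RA vs Veh (-1.35 ± 0.046, adjusted p = 4.11e-18), 1.91-fold in NRRA vs NR (-0.93 ± 0.045, adjusted p = 3.42e-15) and 2.24-fold in NRRA vs Veh (-1.16 ± 0.045, adjusted p = 1.24e-17). It was slightly lower under restriction without RA (NR vs Veh -0.23 ± 0.044, adjusted p = 0.000131). With RA the sign was the opposite, with *Mcam* higher in NRRA vs RA (0.19 ± 0.047, adjusted p = 0.00145).

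*Thy1* (chr9:44043384-44048579, plus strand), a glycolipid-anchored protein of the immunoglobulin superfamily, was among the earliest surface markers used to enrich SSCs and is also a surface protein of fibroblasts. It had 288 and 276 CPM in Veh, 210.4 and 194 CPM in RA, 228 and 228 CPM in NR and 162 and 164 CPM in NRRA. Every treated group lay below Veh, and NRRA lay lowest. Against Veh, *Thy1* fell 1.40-fold with RA (-0.48 ± 0.045, adjusted p = 2.27e-09), 1.24-fold with restriction (-0.31 ± 0.045, adjusted p = 3.06e-06) and 1.73-fold with both (-0.79 ± 0.045, adjusted p = 3.86e-14). The log2 changes with RA alone and NR alone add up to -0.79, and the change with both treatments was also -0.79.

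*Adgra3* (chr5:49959956-50059006, minus strand) encodes the adhesion G protein-coupled receptor GPR125, known from spermatogonial progenitors. It was the only one of the 9 genes to be called higher in NRRA vs Veh. The libraries gave 102 and 103 CPM in Veh, 117 and 114 CPM in RA, 80.7 and 81.2 CPM in NR and 122 and 119 CPM in NRRA. NR was the lowest group and both groups with RA were above Veh. *Adgra3* rose in RA vs Veh (0.17 ± 0.048, adjusted p = 0.00418), fell in NR vs Veh (-0.34 ± 0.049, adjusted p = 2.92e-06) and rose in NRRA vs Veh (0.24 ± 0.047, adjusted p = 0.000108). With RA under restriction it was 1.49-fold higher (NRRA vs NR 0.57 ± 0.047, adjusted p = 1.55e-10), to a level whose difference from RA alone was not called (0.062 ± 0.046, adjusted p = 0.311). Its paralog *Adgra2* had another pattern, with 194 and 179 CPM in Veh, 394 and 378 CPM in RA, 164 and 165 CPM in NR and 190.3 and 184 CPM in NRRA.

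**Figure D3:**
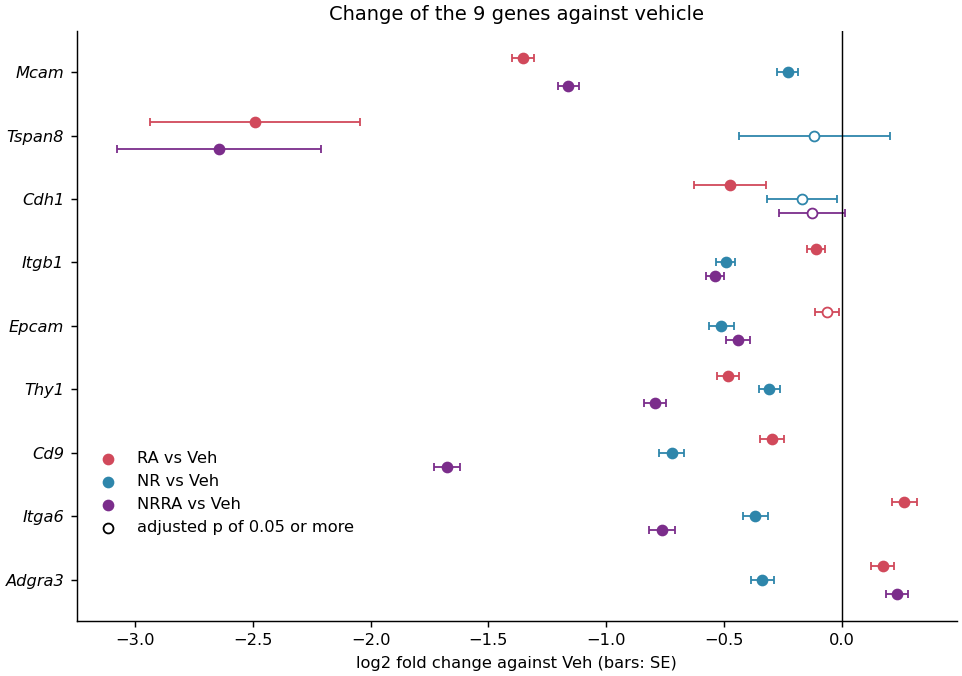
Log2 fold change against Veh in RA, NR and NRRA for each gene, with bars for the SE from edgeR and open points where the adjusted p was 0.05 or more. *Tspan8* and *Mcam* lie far left in RA (-2.49 and -1.35) and close to 0 in NR (-0.12 and -0.23), whereas *Cd9* lies further left in NRRA (-1.67) than in either single treatment. *Tspan8* passed the filter on low counts only through Veh and NR, so its decrease with RA was partly fixed by the filter.

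Whether RA acted alike in both media was asked with the interaction, for which the log2 change with RA in complete medium is subtracted from the one under restriction. It was called for 4 of the 9 genes, where 13% of all tested genes were called, 6.37% with a positive and 6.58% with a negative value. For *Itga6* it was -0.66 ± 0.076 (adjusted p = 4.85e-07), with RA vs Veh at 0.27 and NRRA vs NR at -0.40. For *Cd9* it was -0.66 ± 0.077 (adjusted p = 6.81e-07), from -0.30 in complete medium to -0.95 under restriction. For *Mcam* the value was positive, at 0.42 ± 0.064 (adjusted p = 3.61e-05), since the decrease with RA was smaller under restriction. *Adgra3* had 0.40 ± 0.067 (adjusted p = 0.000133), its increase with RA being larger under restriction. The remaining 5 genes were not called, with *Cdh1* at 0.52 ± 0.21 (adjusted p = 0.105, and from 0.27 to 0.72 without 1 or the other NRRA library), *Epcam* at 0.13 ± 0.073 (adjusted p = 0.267), *Itgb1* at 0.065 ± 0.055 (adjusted p = 0.507), *Thy1* at -0.0021 ± 0.064 (adjusted p = 0.99) and *Tspan8* at -0.039 ± 0.65 (adjusted p = 0.981). The SE of *Tspan8* was the largest of the 9, so a sizeable interaction in either direction could not be detected for it.

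**Figure D4:**
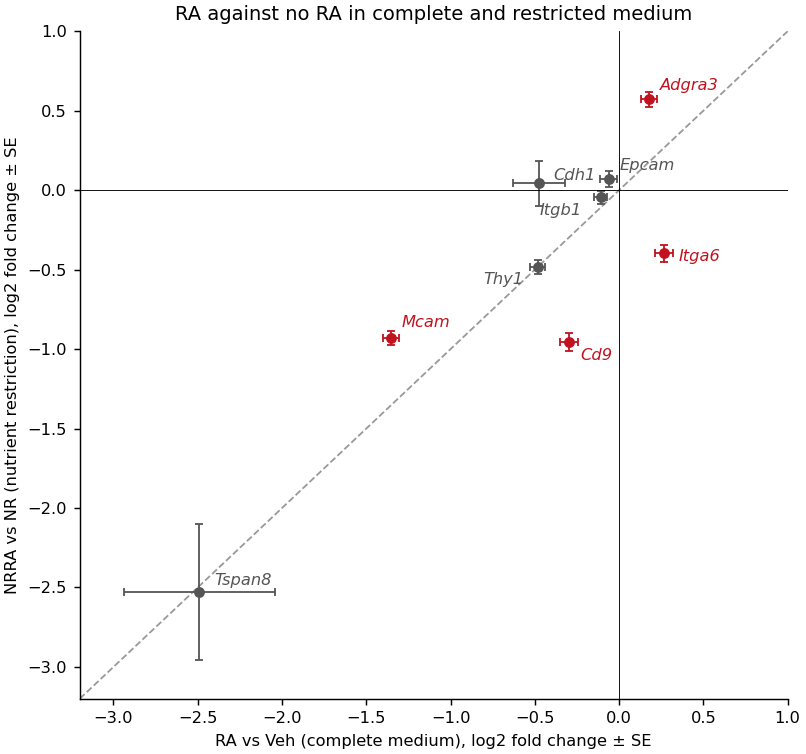
Log2 fold change with RA in complete medium (horizontal axis, RA vs Veh) and under nutrient restriction (vertical axis, NRRA vs NR) for each gene, with SE bars; the dashed line marks equal changes and red marks a called interaction. *Itga6* and *Cd9* lie below the line and *Mcam* and *Adgra3* above it.

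The other chains and partners of these proteins did not move as a block. Of 24 other integrin chains 21 were tested, with 6 higher and 6 lower in RA vs Veh, 7 and 7 in NR vs Veh, and 10 and 6 in NRRA vs Veh (median 0.34). Among the collagen-binding α chains, *Itga11* and *Itga1* rose, *Itga2* fell and *Itga10* was not called in NRRA vs Veh. *Itga11* had 22.2 and 22.6 CPM in Veh, 12.1 and 11.2 CPM in RA, 194 and 188 CPM in NR and 99.0 and 95.8 CPM in NRRA (NRRA vs Veh 2.12 ± 0.060 SE, adjusted p = 1.46e-20). *Itga2* had 41.9 and 54.8 CPM in Veh, 61.4 and 61.2 CPM in RA, 7.47 and 7.71 CPM in NR and 9.15 and 7.67 CPM in NRRA (-2.53 ± 0.10, adjusted p = 3.52e-17). *Itga1* changed by 1.84 ± 0.085 (adjusted p = 4.36e-16), and *Itga10* had -0.19 ± 0.24 (adjusted p = 0.519). Which cells of the mixed cultures carried these integrin changes was not tested. Among 12 laminin and fibronectin genes, which encode ligands of these integrins, 5 were higher and 5 lower in NRRA vs Veh (median -0.072). *Lama1* rose (0.54 ± 0.11, adjusted p = 0.000173), the largest called increase of the genes on this list that averaged 50 counts or more.

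Of 29 other tetraspanins 24 were tested, with 6 higher and 10 lower in RA vs Veh, 2 and 11 in NR vs Veh, and 9 and 11 in NRRA vs Veh (median -0.18). *Tspan11* fell from 45.9 and 46.6 CPM in Veh to 8.397 and 7.13 CPM in NRRA (-2.58 ± 0.085, adjusted p = 3.23e-19), whereas *Tspan15* rose from 2.03 and 1.72 CPM to 4.54 and 5.75 CPM (1.46 ± 0.20, adjusted p = 8.26e-07). In the list of 12 other cadherins and catenins, 2 were higher and 5 lower in RA vs Veh, 4 and 7 in NR vs Veh, and 3 and 8 in NRRA vs Veh (median -0.34). R-cadherin, *Cdh4*, went with RA, at 13.3 and 11.4 CPM in Veh, 2.19 and 1.80 CPM in RA, 20.4 and 20.1 CPM in NR and 2.64 and 2.54 CPM in NRRA. The catenin *Ctnna2* had the largest increase of this list (NRRA vs Veh 0.59 ± 0.16, adjusted p = 0.00301).

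A list of 11 other surface proteins reported on spermatogonia had 2 genes higher and 7 lower in RA vs Veh, 1 and 8 in NR vs Veh, and 2 and 9 in NRRA vs Veh (median -1.46). The GDNF receptor *Ret* was at 245 and 221 CPM in Veh, 53.1 and 51.7 CPM in RA, 185 and 193 CPM in NR and 31.8 and 31.8 CPM in NRRA (NRRA vs Veh -2.87 ± 0.056, adjusted p = 6.03e-24). *Kit*, the receptor that marks differentiating spermatogonia, was at 6.34 and 6.31 CPM in Veh, 212 and 203 CPM in RA, 23.8 and 23.6 CPM in NR and 359 and 357 CPM in NRRA (5.82 ± 0.067, adjusted p = 1.26e-28). *Ret* also belongs to the list of undifferentiated markers and *Kit* to that of differentiating markers. Other genes of these lists did not all move with them. In NRRA vs Veh, 10 of 12 undifferentiated markers were lower and 1 was higher, *Sall4* (0.63 ± 0.047, adjusted p = 1.07e-11). Of 5 differentiating markers 4 were higher and 1 was lower, *Dmrtb1* (-1.38 ± 0.22, adjusted p = 6.83e-06).

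Sorting schemes for SSCs also use proteins that are low on transplantable cells, and 8 such genes were examined. They were measured in the mixed cultures, and the part of the feeder fibroblasts in their levels was not tested. In RA vs Veh 1 was higher and 5 lower, and in both NR vs Veh and NRRA vs Veh 6 were higher and 2 lower. The class I histocompatibility genes *H2-K1*, *H2-D1* and *B2m* were lower in RA and higher in both restricted groups than in Veh. *H2-K1* had 461 and 429 CPM in Veh, 411 and 392 CPM in RA, 678 and 666 CPM in NR and 707 and 709 CPM in NRRA, and *H2-D1* and *B2m* changed in the same directions (NRRA vs Veh 0.32 ± 0.037 and 0.26 ± 0.036). *Ly6a*, which encodes SCA-1, had 50.7 and 50.8 CPM in Veh, 24.4 and 21.2 CPM in RA, 149 and 142 CPM in NR and 63.0 and 64.2 CPM in NRRA. *Cd34*, a sialomucin of progenitor and stromal cells, fell in every treated group, from 107 and 116 CPM in Veh to 53.2 and 47.1 CPM in RA, 32.4 and 33.6 CPM in NR and 14.8 and 14.2 CPM in NRRA. The αv integrin *Itgav* fell in NR (-0.19 ± 0.057, adjusted p = 0.00931) and NRRA (-0.38 ± 0.057, adjusted p = 2.24e-06) vs Veh, and *Ptprc* rose in both (1.36 ± 0.16 and 0.98 ± 0.16) at no more than 10.1 CPM.

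**Figure D5:**
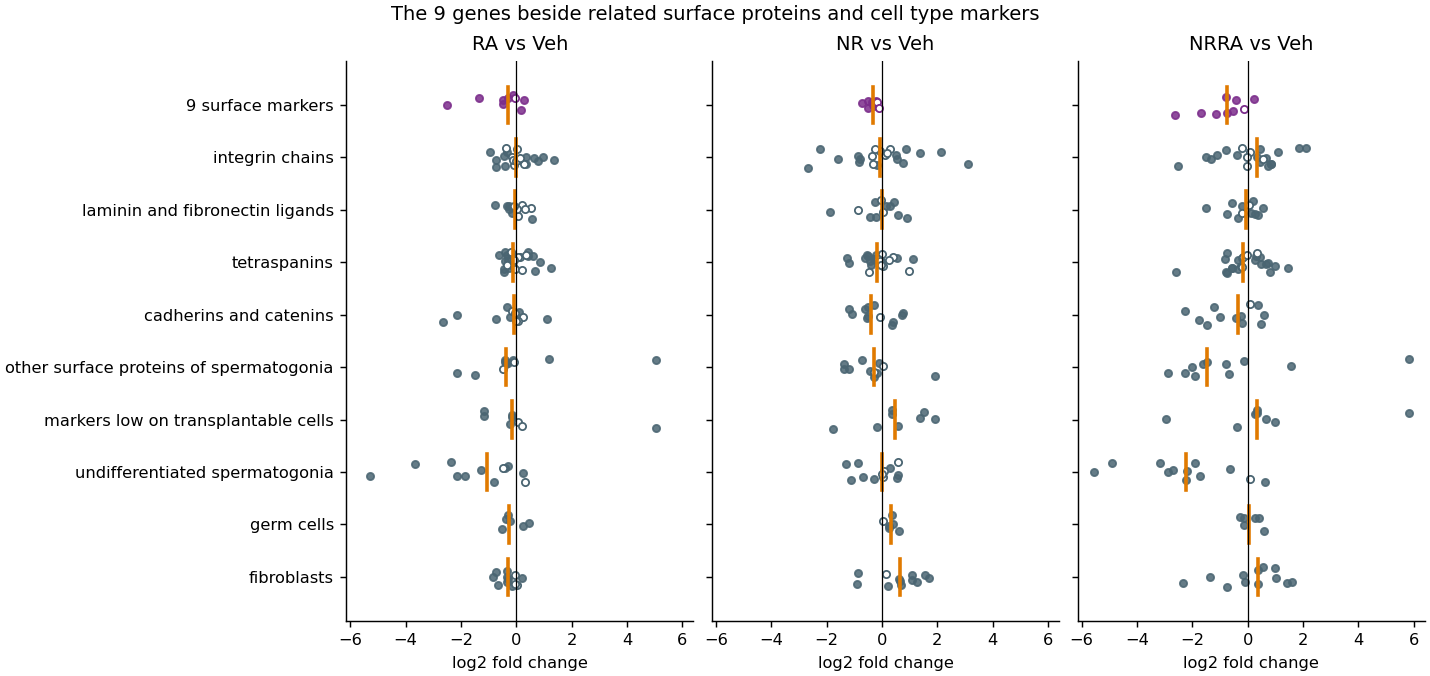
Log2 fold change against Veh in RA, NR and NRRA (horizontal axes) for the 9 surface markers, related surface proteins and cell type markers, 1 point per tested gene, filled where the adjusted p was under 0.05, with the median as a vertical bar. The 9 genes have medians of -0.30, -0.34 and -0.76, and the fibroblast markers -0.31, 0.65 and 0.36.

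The fibroblast markers are given beside these values because fibroblasts also express some of the surface genes, such as *Thy1* and *Itgb1*. Of 12 fibroblast markers 1 was higher and 8 lower in RA vs Veh, 9 higher and 2 lower in NR vs Veh, and 7 higher and 5 lower in NRRA vs Veh. *Col1a1* was at 3761 and 3723 CPM in Veh, 3477 and 3203 CPM in RA, 7628 and 8110 CPM in NR and 7792 and 7415 CPM in NRRA. Other markers of the list went the other way. *Vim* was at 1803 and 1773 CPM in Veh, 951 and 982 CPM in NR and 704 and 681 CPM in NRRA. *Lum* fell in NRRA vs Veh (-0.74 ± 0.063, adjusted p = 1.4e-10), and *S100a4*, whose reads may be shared with *Gm42674* on the same strand, fell in NR (-0.87 ± 0.23, adjusted p = 0.00282) and NRRA vs Veh (-2.32 ± 0.26, adjusted p = 2.7e-08). Called decreases of *Itgb1*, *Epcam*, *Cd9*, *Thy1*, *Itga6*, *Mcam* and *Adgra3* in NR vs Veh stood beside a higher summed level of fibroblast markers, with and without the collagens, and the part of that level in these results was not tested. Germ cell markers were also higher in NR than in Veh (5 of 6 higher, 0 lower, median 0.31).

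Some genes followed a surface marker closely over the 8 libraries. For the 4 markers whose group means spanned at least 1 on the log2 scale, the nearest profiles were ranked by the root mean square difference of log2 CPM after centring each gene, among tested genes that averaged 50 counts or more. *Runx2* (0.077) was among the nearest to *Itga6*, and *Chst1* (0.068) and the overlapping *Gm26728* (0.085) were nearest to *Cd9*. *Shb* (0.088) and the amino acid transporter gene *Slc7a5* (0.090) were nearest to *Mcam*, with *Slc7a5* at 393 and 340.2 CPM in Veh, 144 and 143 CPM in RA, 297 and 296 CPM in NR and 143 and 139.8 CPM in NRRA. *Myo5b* (0.25) and *Gm27530* (0.31) were nearest to *Tspan8*, at a larger distance than for the other markers. With 3 to 29 reads of *Tspan8* per library, counting error enters its distances more than those of the other markers.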

How the data were processed

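RNA of cultured spermatogonia was sequenced in 8 libraries, 2 for each of Veh, RA, NR and NRRA, grouped by the labels. The authors deposited counts of reads per gene as whole numbers without normalization. The submitters' processing notes name bcl2fastq, STAR 2.6.1c, featureCounts 1.6.4 and the build mm10. The paper describes stranded sequencing. The annotation release and the strand setting of the counting are not given in the sources used here, and unstranded counting could alter the counts of genes that overlap. All 8 columns were matched to libraries by name, with 0 left over. Of 55421 identifiers 55240 were found in GENCODE M21 (GRCm38), which gave coordinates and exon lengths.

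Counts were analysed in R 4.3.3 with edgeR 4.0.16 (filterByExpr by group, TMM, 1 coefficient per group, quasi-likelihood F test, Benjamini-Hochberg adjustment within each comparison over 20477 genes) with 4 residual degrees of freedom, so the spread was estimated once over all groups. The study's tool, DESeq2 (1.42.0), was run as an alternative. Comparisons against Veh share its libraries, as do those against NRRA. The SE is the log2 fold change divided by the square root of F. The common biological coefficient of variation was 3.35%. Replicates differed most in Veh, where their chi-square averaged 3.93 over genes, while RA had 2.12, NRRA 1.73 and NR 1.58. With 1 spread for all groups, the SE can be too small in comparisons against Veh. Whether 2 libraries per group cover the variation between independent cultures was not tested, so very small adjusted p values rest on this spread. The script was tested on simulated data. Promoters were searched and figures drawn in Python 3.11.15 with matplotlib 3.10.9.

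The 9 genes and all gene lists were chosen with earlier results of these data known. From each list of related surface proteins, the called gene with the largest positive and that with the largest negative change in NRRA vs Veh are named, at a mean of at least 50 counts, besides the 8 markers low on transplantable cells and the 2 nearest profiles of each gene that spans 1 on the log2 scale; some genes that this rule names are not reported here. *Adgra2*, *Itga1*, *Itga10*, *Col1a1*, *Col1a2*, *Col3a1*, *Vim*, *Lum*, *S100a4*, *Gm42674*, *Acta2* and *Rhox8* were named after their values were seen. So were *Sox9*, *Sall4* and *Dmrtb1*. The alternatives were DESeq2, RLE and upper-quartile scaling, no filter on low counts, the replicate block, a fit of the compared groups only, leaving out each library, and removal of GC and length trends.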

Additional observations from a re-analysis of the deposited data

Results flagged for a closer look

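The effect of RA differed between complete and nutrient-restricted medium for 4 of the 9 genes, by edgeR's test of the interaction over all tested genes with n = 2 libraries per group. The same test called 13% of all tested genes. The difference, as the log2 change under restriction minus that in complete medium, was -0.66 for *Itga6* (RA raised it in complete medium and lowered it under restriction, in both libraries of each group). It was -0.66 for *Cd9*, whose decrease with RA was larger under restriction. It was 0.42 for *Mcam*, whose decrease with RA was smaller under restriction, and 0.40 for *Adgra3*, whose increase with RA was larger under restriction. Over the alternatives the interaction ranged from -0.76 to -0.63 for *Itga6*, from -0.72 to -0.60 for *Cd9*, from 0.32 to 0.45 for *Mcam* and from 0.36 to 0.42 for *Adgra3*, and it was called in all 14 that could be fitted.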

How the results depend on the processing

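Of 54 values (9 genes in 6 comparisons) 39 were called, 33 group differences in all 15 alternatives and 4 interactions in all 14 that give one, and 0 called values changed sign in any. The kept calls include the decreases of *Tspan8* with RA, a gene that was tested only through Veh and NR. *Itgb1* in RA vs Veh (-0.11) lost its call with upper-quartile scaling (-0.075), in a fit of RA and Veh alone (-0.079) and without 4 of the libraries (-0.095 to -0.032). *Cdh1* in RA vs Veh lost its call with DESeq2 and without Veh replicate 1 or RA replicate 2. Calls were gained for *Cdh1* in NRRA vs RA with no filter (0.37), with GC and length trends removed (0.34) and without NRRA replicate 1 (0.55), which also gave a called *Cdh1* interaction (0.72, adjusted p = 0.0229 in edgeR), while without NRRA replicate 2 they were 0.097 (adjusted p = 0.716) and 0.27 (adjusted p = 0.532), and for *Itgb1* in NRRA vs NR with GC and length trends removed (-0.11). The cause was not tested. The removal of GC and length trends was chosen after seeing the data.

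Uncalled values near 0 changed sign. The *Thy1* interaction was 0.0066 with no filter and ranged from -0.070 to 0.059 over the fits without 1 library, and that of *Itgb1* from -0.028 to 0.087. *Epcam* in RA vs Veh was 0.012 with GC and length trends removed. Over the fits without 1 library *Cdh1* ranged from -0.38 to 0.075 in NRRA vs Veh and from -0.21 to 0.24 in NRRA vs NR, and *Tspan8* from -0.32 to 0.12 in NR vs Veh, from -0.64 to 0.39 in NRRA vs RA and from -0.53 to 0.51 in the interaction, which was 0.087 with GC and length trends removed. DESeq2 gave no adjusted p for that interaction, and the fit of compared groups only gives no interaction and no value for *Tspan8* in NRRA vs RA, where it did not pass the filter.

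Deviations of same-numbered libraries correlated between -0.078 and 0.076, so they shared little by replicate number. This cannot show whether the cultures themselves were paired. With the replicate block no call of the 9 genes changed, in the group differences or in the interaction.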
